A study of Mus musculus with 6 samples.

Results

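The genes described here encode Mediator and the general transcription factors of RNA polymerases I, II and III. They were chosen by symbol alone, as every row of the deposited table named Med or Taf with a number, or Gtf2 or Gtf3 with a letter, with Taf4b and pseudogene rows left out. The rule gave 76 of 55291 rows, of which 31 are Med, 22 Taf, 16 Gtf2 and 7 Gtf3 symbols. Med9os fits the pattern but is an opposite-strand transcript at Med9 and no Mediator subunit, so 30 rows are Mediator genes. Every one of the 76 had at least 1 read, and 74 passed the filter on low counts. Taf7l and Taf9 did not pass it.

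The levels were compared between Nat10 cKO and WT fully grown mouse oocytes. The Nat10 cKO females carry Gdf9-cre, whose promoter drives Cre in oocytes, together with conditional Nat10 alleles, while the controls are labelled WT, with no Cre stated for them. NAT10 is the RNA acetyltransferase that makes N4-acetylcytidine. All females had received the gonadotropin PMSG 32 to 48 h earlier in the series' design text and 36 to 48 h earlier in the sample protocols. Each group had 3 libraries, each made by Smart-seq2 from 10 oocytes, with an ERCC spike-in added to each. The labels do not say which animals gave which pool, so the p-values measure the spread between pools. In pooled oocytes, fewer cells with a transcript and less of it per cell cannot be told apart.

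Transcription by RNA polymerase II starts from a pre-initiation complex. TFIID, made of the TATA-binding protein TBP and its associated factors (TAFs), recognises the core promoter. TFIIA and TFIIB steady it, TFIIF brings the polymerase, and TFIIE and TFIIH open the DNA. Mediator bridges activators and this complex through head, middle and tail modules on a MED14 backbone, and a separable kinase module regulates it. Some TAFs also belong to the coactivator SAGA. SL1 and TFIIIC play related parts for polymerases I and III. In mice, growing oocytes use a variant machinery that includes the TBP paralogue TBPL2, and transcription has largely ceased by the time the oocyte is fully grown, so that its mRNA is mostly a stored pool.

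The libraries of Nat10 cKO replicates 1, 2 and 3 held 74.1, 47.4 and 71.0 M reads, against 33.5, 34.1 and 65.5 M in WT replicates 1, 2 and 3, with 23044 to 26440 genes detected in each. Nat10 had 5.72, 5.97 and 6.32 reads per M library reads (CPM, with libraries scaled by TMM so that the bulk of genes shows no net change) in the Nat10 cKO libraries, against 42.1, 50.1 and 39.3 CPM in the WT libraries (log2 change -2.67, SE 0.129, limma adjusted p = 4.26e-08). The labels do not name the deleted exons, and reads from undeleted exons are counted too. The 8 oocyte markers summed to 21022 to 23635 CPM in Nat10 cKO and 18683 to 19181 CPM in WT libraries, with 5 of the 8 higher and 2 lower. The 9 granulosa markers summed to 55.1 to 64.4 CPM in Nat10 cKO and 57.8 to 74.7 CPM in WT libraries, with Inha higher and Cyp19a1 lower in Nat10 cKO, and Amh at 0 in every WT library. The 6 blood markers summed to 34.7 to 35.4 CPM in Nat10 cKO and 43.9 to 50.0 CPM in WT libraries, with C1qb lower in Nat10 cKO and Ptprc at 0 in 2 libraries of each group. The 6 markers of theca, stroma and endothelium summed to 70.9 to 74.1 CPM in Nat10 cKO and 54.0 to 57.8 CPM in WT libraries, with Pecam1 higher and Cyp17a1 lower. Most of the granulosa, blood and theca, stroma and endothelium sums came from a single gene each. Mean CPM in Nat10 cKO and WT libraries was 41.1 and 52.1 for Cyp19a1, 32.1 and 43.9 for C1qb, and 58.3 and 40.7 for Pecam1. The part of other cells in the results below was not tested.

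Most of the machinery differed little between the genotypes, and the changes that passed the test were mostly small and of both signs. Of the 74 tested genes, 14 were higher in Nat10 cKO oocytes (18.9%) and 9 were lower (12.2%), by limma on TMM-scaled log2(CPM + 1) with Benjamini-Hochberg adjustment over all 18353 tested genes and a threshold of 0.05. Over all tested genes the shares were 17.4% higher and 17.6% lower, so the share that rose is near the background and the share that fell is under it. The median log2 change was 0.05 over the 74 genes and 0.00 over all genes, of which the middle 90% lay between -0.72 and 0.76. Rises ran from 0.29 to 1.48 and falls from -0.36 to -0.88 on the log2(CPM + 1) scale, where the pseudocount of 1 shrinks the changes of low genes. By the ratio of mean CPM, 20 of the 23 differed less than 2-fold, and Taf1c, Gtf2i and Gtf2h4 were 4.21, 3.42 and 2.29 times as high in Nat10 cKO as in WT oocytes. All 3 Nat10 cKO libraries lay above all 3 WT libraries for 24 genes (32.4%) and below them for 14 (18.9%), against 24.1% and 24.2% of all tested genes. Med9os had 0.321, 0.0420 and 0.194 CPM in Nat10 cKO libraries, against 0.0618, 0.402 and 0.264 CPM in WT libraries, which overlap (log2 change -0.07, adjusted p = 0.720). Leaving it out moved the median to 0.06 and left the counts at 14 and 9.

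Summed over all 76 genes, the transcripts made up 8992 ± 167 CPM in Nat10 cKO and 8904 ± 352 CPM in WT oocytes (SD, n = 3 each). The 30 Mediator genes summed to 4760 ± 106 CPM in Nat10 cKO and 4609 ± 131 CPM in WT oocytes. The 16 TFIID genes summed to 1505 ± 22.5 CPM in Nat10 cKO and 1501 ± 51.1 CPM in WT oocytes. For TFIID and for all 76 genes the group means lay closer together than the spread of the WT libraries. Among complexes with at least 5 tested genes, the median log2 change ran from 0.01 in TFIID to 0.20 in TFIIH and 0.40 in the TFIIIA and TFIIIC set. Genes past the threshold went in both directions within Mediator, TFIID and the TFII-I family, as the plot of each gene's change shows. In SL1, TFIIA, TFIIH, the SAGA-specific TAFs and the TFIIIA and TFIIIC set, calls were in a single direction. TFIIB, TFIIE and TFIIF had no call. Whether any complex or module differs from all tested genes in its share of calls was not tested.

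**Figure D1:**
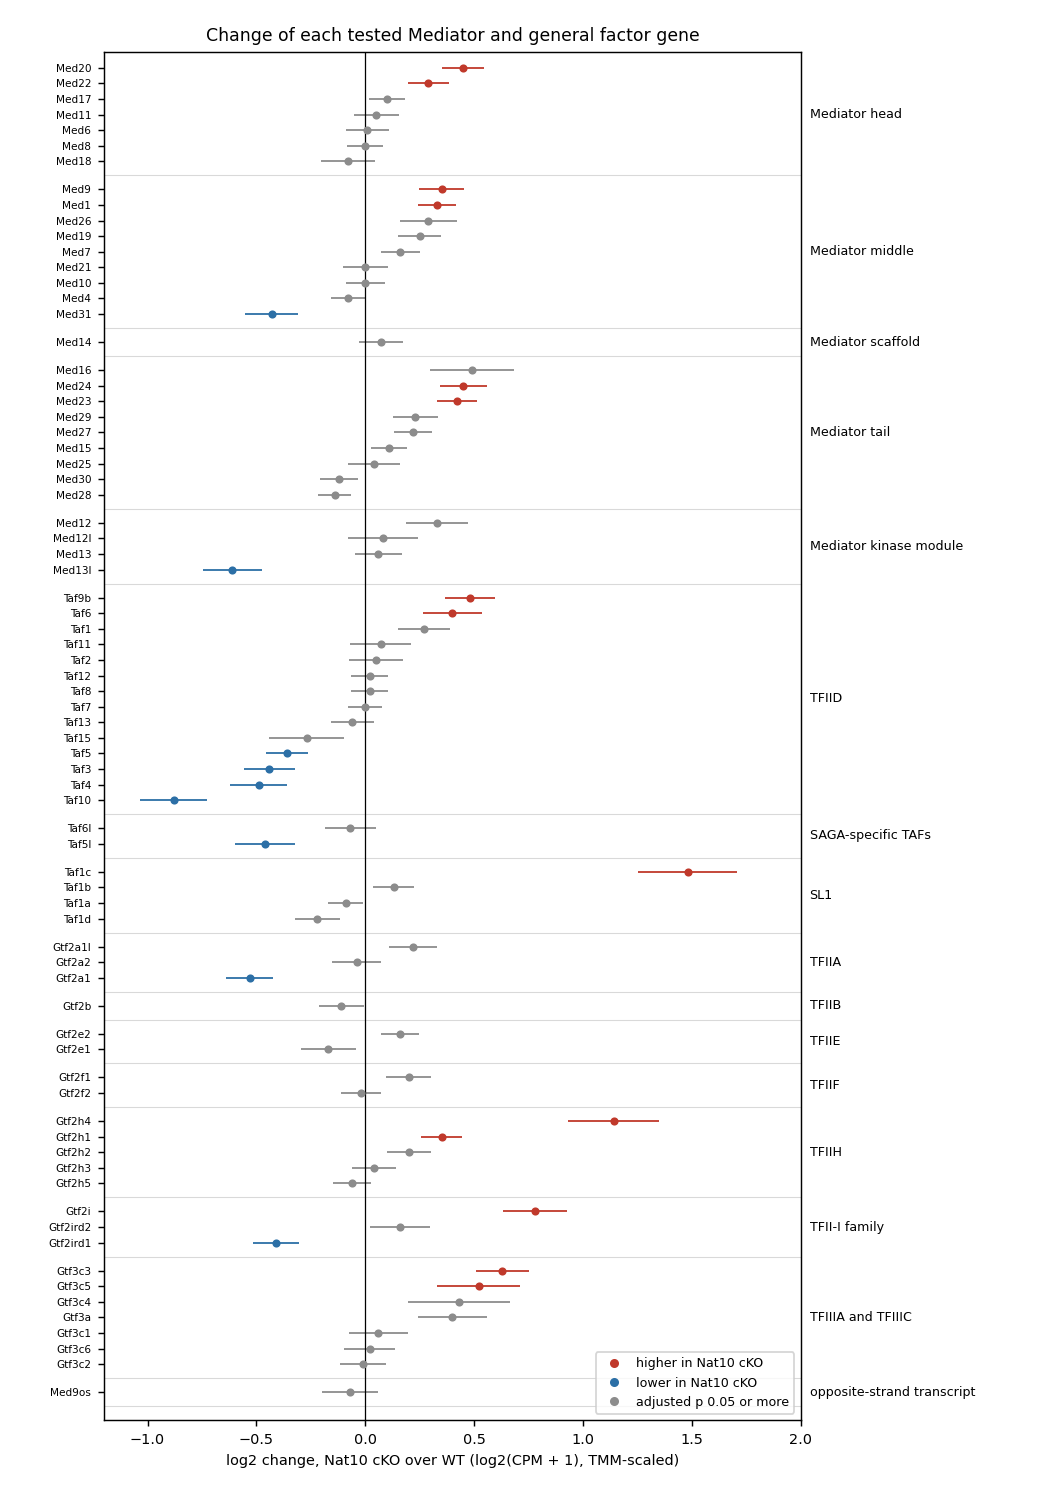
Log2 change (Nat10 cKO over WT, log2(CPM + 1), TMM-scaled) of each of the 74 tested genes, grouped by complex or module; points are limma estimates and bars 1 SE, red for higher, blue for lower and grey for adjusted p of 0.05 or more. Taf1c at 1.48 and Gtf2h4 at 1.14 stand apart on the right and Taf10 at -0.88 on the left, while every other gene lies within 1 log2 unit of 0.

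Compared per kilobase of exon, the levels spanned several orders of magnitude in both genotypes. In Nat10 cKO oocytes 10 of the 76 genes stood at 100 CPM per kb or more, 34 at 10 to 100, 23 at 1 to 10 and 9 below 1. In WT oocytes the same bins held 8, 36, 21 and 11 genes. The 5 most abundant Mediator transcripts were Med28, Med30, Med6, Med27 and Med17 in both genotypes, led by Med28 at 198 CPM per kb in Nat10 cKO and 219 in WT oocytes. The kinase module was the least abundant, with a median over its 4 genes of 1.54 CPM per kb in Nat10 cKO and 1.92 in WT oocytes. Med12l stood lowest of all subunits, at 0.406 in Nat10 cKO and 0.379 in WT oocytes. Outside Mediator, Gtf2b, which encodes TFIIB itself, stood at 138 CPM per kb in Nat10 cKO and 150 in WT oocytes, and Taf1a of SL1 at 135 in Nat10 cKO and 144 in WT oocytes. In TFIID the order of the top pair differed, with Taf9b at 113 and Taf7 at 107 in Nat10 cKO oocytes, and Taf7 at 107 and Taf9b at 80.5 in WT oocytes.

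**Figure D2:**
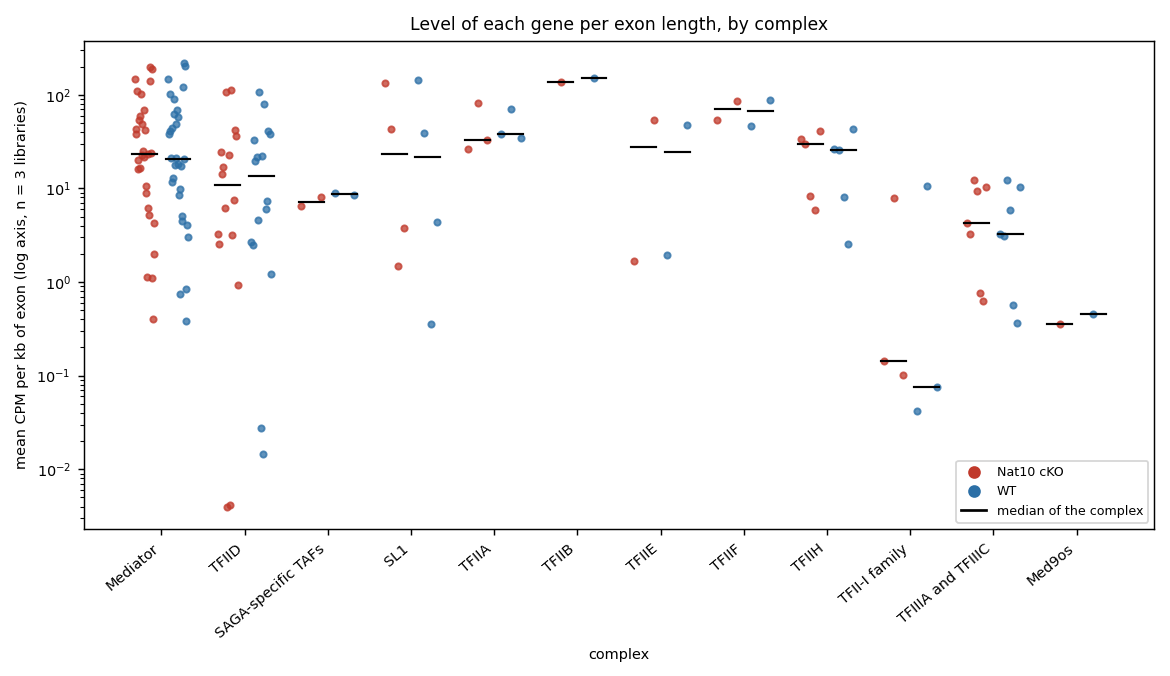
Mean level of each gene in CPM per kb of exon (log axis, n = 3 libraries), by complex, with Nat10 cKO in red left of WT in blue; black lines are medians over the genes of a complex. The Mediator medians are 23.6 CPM per kb in Nat10 cKO and 20.7 in WT oocytes, and the TFIID genes Taf7l and Taf9 are the lowest points in both genotypes.

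In the Mediator head, which contacts the polymerase directly, 2 of 7 genes rose, against 17.4% of all tested genes. Med20 (chromosome 17, 47611582 to 47624418, GRCm38), whose product forms the movable jaw of the head with MED18, had 115, 132 and 108 CPM in Nat10 cKO libraries, against 88.2, 85.8 and 84.6 CPM in WT libraries. The groups stood apart (log2 change 0.45, SE 0.0959, adjusted p = 0.00311), and the call held when any library was left out. Over 21.4% of its exon bases Med20 shares its locus with the opposite-strand pseudogene Kpna2-ps, which had no read in any library. Med22 had 186, 219 and 184 CPM in Nat10 cKO and 161, 170 and 151 CPM in WT libraries, again without overlap (0.29, SE 0.0943, adjusted p = 0.0303). The Med22 call was lost without WT replicate 1, WT replicate 3, Nat10 cKO replicate 1 or Nat10 cKO replicate 2 (adjusted p = 0.0685, 0.130, 0.0562 and 0.127). Med6, the most abundant head transcript per length, had 224, 213 and 204 CPM in Nat10 cKO, against 233, 184 and 221 CPM in WT libraries, which overlap (0.01, adjusted p = 0.927). The other 4 head genes, Med8, Med11, Med17 and Med18, had log2 changes of -0.08 to 0.10.

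In the middle module, 2 of 9 genes rose and 1 fell, against 17.4% and 17.6% of all tested genes. Med1, the subunit that binds nuclear receptors, had 147, 148 and 136 CPM in Nat10 cKO libraries, against 108, 115 and 118 CPM in WT libraries (log2 change 0.33, SE 0.0865, adjusted p = 0.00967). The groups did not overlap, and without Nat10 cKO replicate 1 the adjusted p was 0.0532. Med9 had 43.7, 40.2 and 47.4 CPM in Nat10 cKO and 33.9, 35.0 and 33.1 CPM in WT libraries (0.35, SE 0.104, adjusted p = 0.0182). All Nat10 cKO libraries were above all WT libraries, but the Med9 call was lost without WT replicate 1 or 3 or without Nat10 cKO replicate 1 or 3 (adjusted p = 0.0503, 0.0746, 0.0674 and 0.0509). Med31, among the most conserved Mediator subunits, went the other way. It had 74.9, 68.7 and 74.9 CPM in Nat10 cKO libraries, against 110, 79.3 and 109 CPM in WT libraries, where replicate 2 was the low one (-0.43, SE 0.122, adjusted p = 0.0148). Without WT replicate 1, WT replicate 3 or Nat10 cKO replicate 2 the Med31 adjusted p was 0.0717, 0.0894 and 0.0517. A transcript on the other strand, 4930563E22Rik, covers 26.3% of the Med31 exon bases and had at most 0.277 CPM. Med7, the most abundant middle transcript per length, had 294, 307 and 273 CPM in Nat10 cKO and 277, 239 and 269 CPM in WT libraries, which overlap (0.16, adjusted p = 0.192). The other 5 middle genes, Med4, Med10, Med19, Med21 and Med26, had log2 changes of -0.08 to 0.29 and did not pass.

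In the tail, which receives activators, 2 of 9 genes rose, and in 6 of the 9 every Nat10 cKO library lay above every WT library. Over all tested genes, 17.4% rose and 24.1% had every Nat10 cKO library above every WT library. Med23, a target of the E1A and ELK1 activators, had 158, 166 and 139 CPM in Nat10 cKO libraries, against 116, 116 and 112 CPM in WT libraries (log2 change 0.42, SE 0.0919, adjusted p = 0.00376). Med24, which neighbours MED23 in the complex, had 40.2, 44.0 and 37.1 CPM in Nat10 cKO and 29.9, 30.1 and 27.8 CPM in WT libraries (0.45, SE 0.107, adjusted p = 0.00597). Both calls held when any library was left out. Med16, which joins them in the tail, had a similar estimate but did not pass, at 5.53, 5.38 and 4.69 CPM in Nat10 cKO and 2.23, 4.28 and 4.01 CPM in WT libraries (0.49, SE 0.191, adjusted p = 0.0610). Med28, the most abundant of all 76 per length, had 1005, 969 and 999 CPM in Nat10 cKO libraries, against 1078, 1067 and 1141 CPM in WT libraries (-0.14, SE 0.0757, adjusted p = 0.157). The Med28 groups stood apart, but the difference did not pass the test. Med15, Med25, Med27, Med29 and Med30 had log2 changes of -0.12 to 0.23 and did not pass. The backbone gene Med14 had 80.3, 82.3 and 70.4 CPM in Nat10 cKO, against 81.3, 70.6 and 70.4 CPM in WT libraries (0.07, adjusted p = 0.640), with the groups overlapping.

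The kinase module holds CDK8 or CDK19 with cyclin C, MED12 or MED12L, and MED13 or MED13L. Of its 4 genes in the set, 1 fell, against 17.6% of all tested genes. Med13l (chromosome 5, 118560679 to 118765438, GRCm38), whose product can link the kinase to the core, had 29.4, 24.6 and 37.3 CPM in Nat10 cKO libraries, against 42.9, 49.1 and 46.7 CPM in WT libraries. The groups did not overlap (log2 change -0.61, SE 0.137, adjusted p = 0.00445), and the call held when any library was left out. Its paralogue Med13 had 45.7, 41.5 and 51.5 CPM in Nat10 cKO and 44.3, 46.5 and 41.7 CPM in WT libraries (0.06, adjusted p = 0.698), with the groups interleaved. Med12 had 9.01, 7.48 and 8.82 CPM in Nat10 cKO libraries, against 6.64, 6.55 and 6.29 CPM in WT libraries, apart but not past the threshold (0.33, SE 0.141, adjusted p = 0.0859). Med12l had 5.08, 5.86 and 4.59 CPM in Nat10 cKO and 4.33, 5.74 and 4.46 CPM in WT libraries (0.08, adjusted p = 0.715).

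TFIID, the largest complex here after Mediator, had the most falls, 4 of 14 tested genes, beside 2 rises. Over all tested genes 17.6% fell and 17.4% rose. Taf10 (chromosome 7, 105739393 to 105744361, GRCm38), a histone-fold subunit shared by TFIID and SAGA, fell furthest of all the genes. It had 16.1, 11.0 and 16.9 CPM in Nat10 cKO libraries, against 29.9, 28.2 and 24.7 CPM in WT libraries, well apart (log2 change -0.88, SE 0.154, adjusted p = 0.000916). Exons of Ilk on the other strand cover 45.9% of its exon bases, and Ilk had at most 0.0287 CPM in any library. How reads of these shared exons were counted is not stated, so the Taf10 level is uncertain, and the part of Ilk reads in it was not tested. Taf4 (chromosome 2, 179912152 to 179976646, GRCm38), a scaffold subunit, had 64.3, 51.3 and 80.0 CPM in Nat10 cKO libraries, against 93.0, 90.7 and 88.4 CPM in WT libraries (-0.49, SE 0.132, adjusted p = 0.0110). The Taf10 and Taf4 calls held when any library was left out. Taf3, whose PHD finger binds trimethylated histone H3, had 148, 132 and 191 CPM in Nat10 cKO and 220, 210 and 205 CPM in WT libraries (-0.44, SE 0.118, adjusted p = 0.0106). Taf5, a WD-repeat subunit, had 52.6, 53.4 and 60.9 CPM in Nat10 cKO and 71.9, 72.5 and 69.8 CPM in WT libraries (-0.36, SE 0.0958, adjusted p = 0.0112). Both stood apart, but Taf3 was lost without Nat10 cKO replicate 1 or 2 (adjusted p = 0.0511 and 0.0517) and Taf5 without Nat10 cKO replicate 1 (adjusted p = 0.0809).

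The 2 TFIID genes that rose encode histone-fold partners. Taf9b (chromosome X, 106206883 to 106221158, GRCm38), a paralogue of Taf9, had 374, 394 and 300 CPM in Nat10 cKO libraries, against 277, 219 and 266 CPM in WT libraries (log2 change 0.48, SE 0.116, adjusted p = 0.00646). The groups did not overlap, and the call held when any library was left out. Taf9 itself was nearly unread, with 2, 0 and 0 reads in Nat10 cKO and 2, 0 and 2 reads in WT libraries. Ak6 on the same strand covers 73.8% of the Taf9 exon bases and had 4.62 to 7.57 CPM; the sources used here do not give how reads of such shared exons were counted, so the Taf9 value is uncertain. Taf6, which pairs with TAF9 or TAF9B, had 29.4, 32.0 and 22.5 CPM in Nat10 cKO libraries, against 20.1, 21.7 and 20.6 CPM in WT libraries (0.40, SE 0.135, adjusted p = 0.0355). Its lowest Nat10 cKO library lay just above the highest WT library, and the Taf6 call was lost without WT replicate 1, WT replicate 3, Nat10 cKO replicate 1 or Nat10 cKO replicate 2 (adjusted p = 0.0929, 0.104, 0.130 and 0.139). Ap4m1 covers 26.5% of the Taf6 exon bases on the other strand and had 1.89 to 2.40 CPM in Nat10 cKO and 1.32 to 1.58 CPM in WT libraries. Taf7, the most abundant TFIID gene in WT oocytes, had 363, 352 and 342 CPM in Nat10 cKO, against 350, 350 and 360 CPM in WT libraries (0.00, SE 0.0781, adjusted p = 0.979). Its germ-cell paralogue Taf7l had 2, 0 and 0 reads in Nat10 cKO libraries, against 6, 0 and 0 reads in WT libraries. The other 7 tested TFIID genes, Taf1, Taf2, Taf8, Taf11, Taf12, Taf13 and Taf15, had log2 changes of -0.27 to 0.27 and did not pass.

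Of the TAFs that belong to SAGA and not TFIID, Taf5l fell. It had 23.5, 20.2 and 24.8 CPM in Nat10 cKO libraries, against 26.9, 38.0 and 30.8 CPM in WT libraries, just apart (log2 change -0.46, SE 0.137, adjusted p = 0.0201). Without WT replicate 2, WT replicate 3, Nat10 cKO replicate 1 or Nat10 cKO replicate 2 the Taf5l adjusted p was 0.0746, 0.0641, 0.0564 and 0.0792. Taf6l had 37.0, 38.1 and 46.6 CPM in Nat10 cKO and 41.9, 46.4 and 38.9 CPM in WT libraries, which overlap (-0.07, adjusted p = 0.688).

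The largest change of all was in SL1, the TBP-containing factor of polymerase I at ribosomal DNA. Taf1c (chromosome 8, 119597871 to 119605222, GRCm38), an SL1 subunit, had 4.91, 6.83 and 3.76 CPM in Nat10 cKO libraries, against 0.587, 1.87 and 1.23 CPM in WT libraries. The lowest Nat10 cKO library was above the highest WT library (log2 change 1.48, SE 0.228, adjusted p = 0.000412), and the call held when any library was left out. These levels rest on 367, 325 and 272 reads in Nat10 cKO and 19, 65 and 79 reads in WT libraries. The pseudocount of 1 shrinks the change of so low a gene; the ratio of mean CPM was 4.21, and edgeR on the reads gave a log2 change of 2.06. Dnaaf1 covers 16.7% of the Taf1c exon bases on the other strand and had 0.294 to 0.595 CPM in Nat10 cKO and 0.0311 to 0.124 CPM in WT libraries, itself higher in every Nat10 cKO library, and its part in the Taf1c reads was not tested. The other SL1 genes did not pass the test. Taf1a had 332, 324 and 318 CPM in Nat10 cKO and 362, 338 and 338 CPM in WT libraries (-0.09, adjusted p = 0.399), and Taf1b and Taf1d had log2 changes of 0.13 and -0.22. Taf1c was also the least abundant of the 4 per length, at 1.48 CPM per kb in Nat10 cKO and 0.352 in WT oocytes.

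TFIIA carried a single call. Gtf2a1 (chromosome 12, 91555262 to 91590487, GRCm38) encodes the precursor of the 2 larger TFIIA chains and had 161, 149 and 187 CPM in Nat10 cKO libraries, against 264, 211 and 244 CPM in WT libraries. The groups stood apart (log2 change -0.53, SE 0.108, adjusted p = 0.00246), and the call held when any library was left out. Gtf2a1l (chromosome 17, 88668660 to 88715152, GRCm38), the germ-cell form of that precursor, had 155, 169 and 137 CPM in Nat10 cKO and 115, 150 and 132 CPM in WT libraries. Those groups overlap (0.22, SE 0.111, adjusted p = 0.146), and the difference passed with WT replicate 2 left out (adjusted p = 0.0347) and with Nat10 cKO replicate 3 left out (adjusted p = 0.0465). Gtf2a2, the small TFIIA subunit, had a log2 change of -0.04 (adjusted p = 0.829). Per length, Gtf2a1l was the more abundant precursor transcript in both genotypes. That order rests on annotated exon lengths of 6241 bases for Gtf2a1 and 1888 for Gtf2a1l.

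TFIIB, TFIIE and TFIIF, with 5 genes in all, gave estimates between -0.17 and 0.20 that did not pass the limma threshold. Gtf2b had 640, 662 and 594 CPM in Nat10 cKO libraries, against 789, 586 and 690 CPM in WT libraries, which overlap widely (log2 change -0.11, SE 0.104, adjusted p = 0.419). Gtf2e2, the smaller TFIIE subunit, had 133, 124 and 118 CPM in Nat10 cKO and 113, 109 and 114 CPM in WT libraries, apart by a narrow gap (0.16, adjusted p = 0.173). Gtf2f2, the smaller TFIIF subunit, had 129, 128 and 120 CPM in Nat10 cKO and 135, 114 and 134 CPM in WT libraries (-0.02, adjusted p = 0.895). Gtf2e1 and Gtf2f1, the larger subunits, had log2 changes of -0.17 and 0.20.

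The TFIIH core serves both promoter opening and nucleotide excision repair. Of the 5 Gtf2h genes, which encode part of it, 2 rose, against 17.4% of all tested genes. Gtf2h4 (chromosome 17, 35667730 to 35673739, GRCm38), the p52 subunit that holds the XPB translocase, had 18.2, 23.7 and 16.3 CPM in Nat10 cKO libraries, against 5.93, 12 and 7.47 CPM in WT libraries. All Nat10 cKO libraries were above all WT libraries (log2 change 1.14, SE 0.208, adjusted p = 0.00119), and the call held when any library was left out. Gtf2h1, the p62 subunit, had 99.8, 110 and 91.8 CPM in Nat10 cKO and 82.5, 75.5 and 78.0 CPM in WT libraries (0.35, SE 0.0958, adjusted p = 0.0132). The Gtf2h1 groups did not overlap, and the adjusted p was 0.0532 with WT replicate 3 left out and 0.0565 with Nat10 cKO replicate 2 left out. Gtf2h5, the most abundant per length, had 168, 154 and 157 CPM in Nat10 cKO and 169, 155 and 176 CPM in WT libraries (-0.06, adjusted p = 0.621). Gtf2h2 and Gtf2h3 had log2 changes of 0.20 and 0.04 and did not pass. Gtf2h4 was the least abundant of the 5 Gtf2h genes per length in both genotypes, at 5.85 CPM per kb in Nat10 cKO and 2.56 in WT oocytes. The core gene Ercc2, outside the symbol rule, stood lower, at 0.723 in Nat10 cKO and 0.631 in WT oocytes.

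The TFII-I family, signal-responsive DNA-binding factors named after a general factor, split in direction. Gtf2i (chromosome 5, 134237834 to 134314760, GRCm38), its founding member, had 1.11, 1.66 and 1.59 CPM in Nat10 cKO libraries, against 0.247, 0.545 and 0.482 CPM in WT libraries (log2 change 0.78, SE 0.147, adjusted p = 0.00145). The groups did not overlap and the call held when any library was left out, on 83, 79 and 115 reads in Nat10 cKO and 8, 19 and 31 reads in WT libraries; edgeR gave a log2 change of 1.74. Gtf2ird1 had 62.3, 54.1 and 65.5 CPM in Nat10 cKO and 83.4, 72.8 and 87.0 CPM in WT libraries, apart in the other direction (-0.41, SE 0.106, adjusted p = 0.00888), and was lost without WT replicate 3 (adjusted p = 0.0598). Gtf2ird2 stayed under 1 CPM in every library (0.16, adjusted p = 0.400).

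TFIIIA and TFIIIC recruit polymerase III to 5S and transfer RNA genes. Among their 7 genes, 2 rose, against 17.4% of all tested genes, and 6 had estimates above 0. The share of estimates above 0 was not taken over all tested genes, whose median log2 change was 0.00. Gtf3c3 (chromosome 1, 54396004 to 54438971, GRCm38), a TPR-repeat subunit of TFIIIC, had 46.6, 51.8 and 38.5 CPM in Nat10 cKO libraries, against 27.8, 28.1 and 31.2 CPM in WT libraries. The groups stood apart (log2 change 0.63, SE 0.121, adjusted p = 0.00174), and the call held when any library was left out. Gtf3c5 had 2.83, 3.72 and 1.98 CPM in Nat10 cKO and 1.67, 2.01 and 1.27 CPM in WT libraries, which overlap (0.52, SE 0.189, adjusted p = 0.0473). The Gtf3c5 call was lost without WT replicate 1, WT replicate 3, Nat10 cKO replicate 1 or Nat10 cKO replicate 2 (adjusted p = 0.0834, 0.184, 0.116 and 0.192) and is the weakest of the 23. Gtf3c2, the most abundant per length, had 78.1, 71.2 and 91.8 CPM in Nat10 cKO and 77.3, 83.4 and 80.4 CPM in WT libraries (-0.01, adjusted p = 0.963). Gtf3a, which encodes the 5S factor TFIIIA, had a log2 change of 0.40 (adjusted p = 0.0621), and Gtf3c1, Gtf3c4 and Gtf3c6 had 0.06, 0.43 and 0.02. Exons of Mtif3 on the other strand cover 59.1% of the Gtf3a exon bases. Mtif3 had 46.9 to 47.9 CPM in Nat10 cKO and 40.8 to 41.9 CPM in WT libraries, and its part in the Gtf3a reads was not tested. The median log2 change of the set, 0.40, is that of Gtf3a itself.

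Most of the 23 genes were displaced furthest in the same Nat10 cKO library. Nat10 cKO replicate 2 lay farthest from WT in 13 of the 14 genes that rose and 8 of the 9 that fell, and Nat10 cKO replicate 3 lay nearest in 12 of 14 and 9 of 9, as the heat map by library shows. The first principal component over all genes, with 74.3% of the variance, set the Nat10 cKO libraries in the same order, at 44.8 for replicate 2, 29.2 for replicate 1 and 20.2 for replicate 3, with WT libraries between -39.7 and -23.1. The count of farthest and nearest libraries was not made over all genes past the threshold. This order is thus not shown to be particular to the 23. The part of this component in the calls was not tested. When any library was left out, 8 rises held in every fit, those of Taf1c, Gtf2h4, Gtf2i, Gtf3c3, Taf9b, Med20, Med24 and Med23. The falls of Taf10, Med13l, Gtf2a1 and Taf4, 4 in all, held likewise. The 14 rises became 9 when Nat10 cKO replicate 1 or WT replicate 3 was left out, 10 when Nat10 cKO replicate 2 or WT replicate 1 was, and 20 when WT replicate 2 was. The 9 falls became 6 when Nat10 cKO replicate 1, Nat10 cKO replicate 2 or WT replicate 3 was left out.

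**Figure D3:**
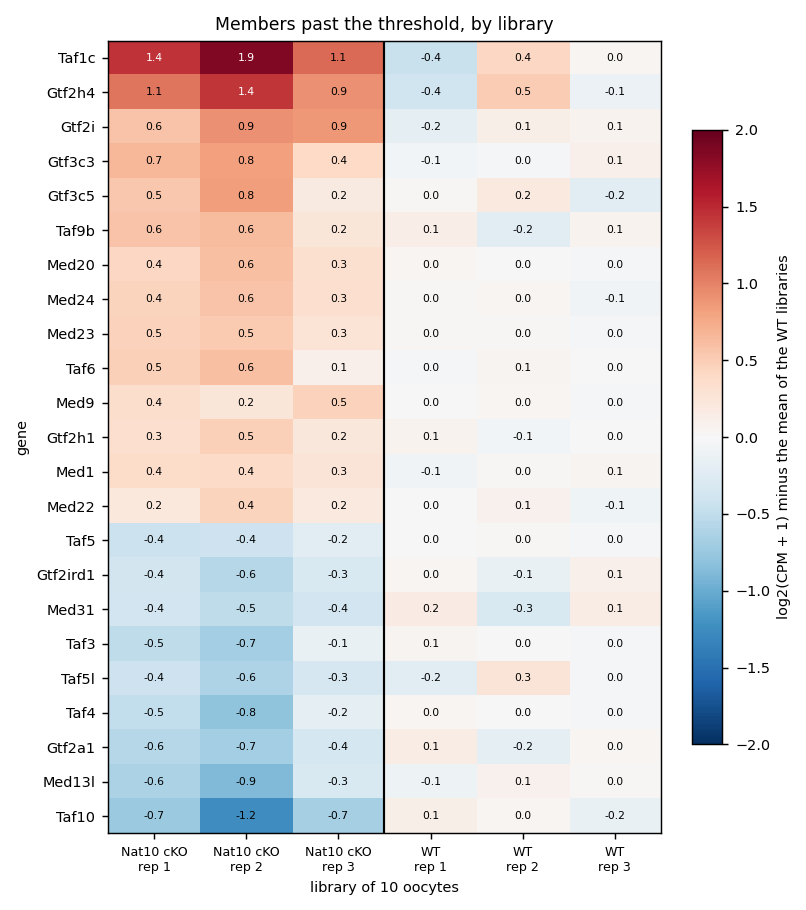
Level of each of the 23 genes past the threshold in each library, as log2(CPM + 1) minus the mean of the WT libraries, Nat10 cKO libraries left of the black line and WT libraries right of it; red is above the WT mean and blue below. In most rows the deepest colour is in Nat10 cKO replicate 2.

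These changes are relative to the bulk of the mRNA in each library. The deposited values carry 1 factor per library, whose formula is not stated, and give a scale that is not divided by the reads of a library. On that scale the median of all genes shifted to 0.24, and on another, CPM times the deposited factor, it shifted to -0.15. On the deposited values, 3 of the genes were higher (4.05%), namely Taf1c, Gtf2h4 and Gtf2i, against 6.58% of all tested genes. None was lower by limma, against 1.39% of all tested genes, and the count lower at an unadjusted p under 0.05 was 0 as well. On CPM times the factor, 3 were higher (4.05%) and 8 lower (10.8%), against 5.60% and 16.5% of all tested genes. The 3 that rose there were again Taf1c, Gtf2h4 and Gtf2i, and the 8 that fell were all the TMM-scaled falls other than Taf5. All 23 estimates had the same sign on the 3 scales, though that of Taf5 was 0.00 to 2 decimals on the deposited values.

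**Figure D4:**
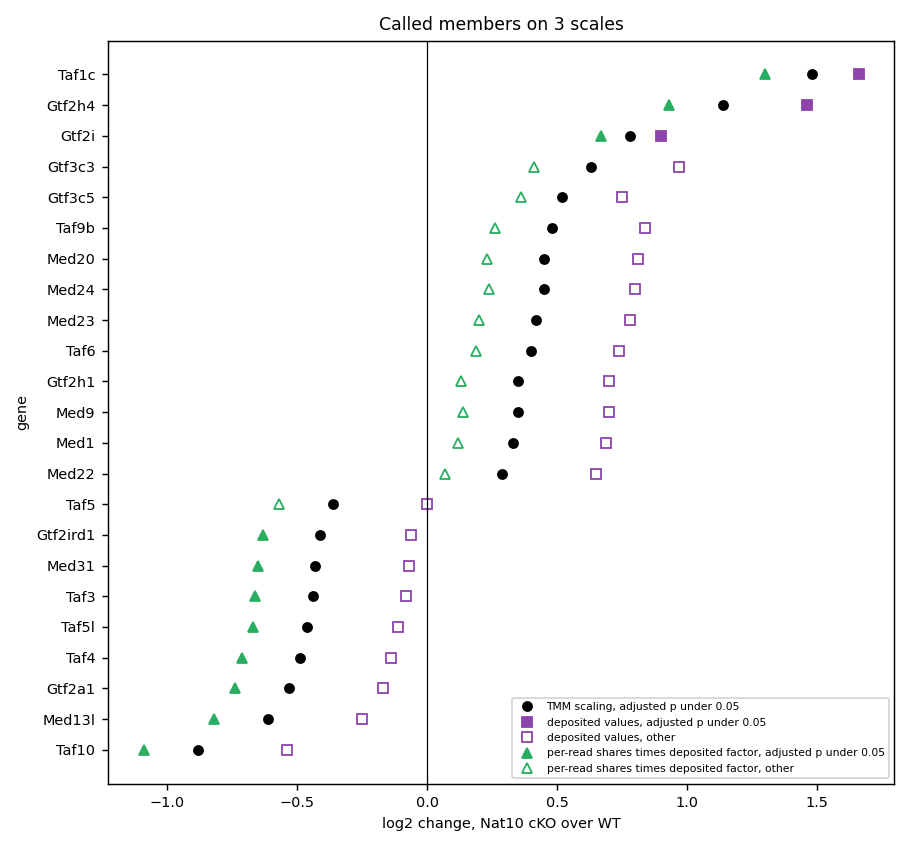
Log2 change (Nat10 cKO over WT) of the 23 genes past the TMM-scaled threshold on 3 scales: TMM scaling (black circles), deposited values (purple squares) and CPM times the deposited factor (green triangles), filled where adjusted p is under 0.05. Only Taf1c, Gtf2h4 and Gtf2i are filled on all 3, and the deposited values move every gene to the right.

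A ratio of a pair of related genes within a library does not depend on the scaling between libraries. The 7 pairs of paralogues with enough reads were compared per kilobase by an exact two-sided permutation test on the log2 ratio, for which 3 against 3 libraries cannot go below p = 0.1. The ratio of Gtf2a1 to Gtf2a1l was 0.315, 0.266 and 0.413 in Nat10 cKO libraries, against 0.691, 0.425 and 0.557 in WT libraries (exact permutation p = 0.1, 0.175 adjusted over the 7 pairs). The lowest WT ratio was only just above the highest Nat10 cKO ratio. Taf4 to Taf4b, the oocyte-enriched paralogue, gave 1.65, 1.46 and 2.05 in Nat10 cKO and 3.44, 2.39 and 2.84 in WT libraries, also apart (exact permutation p = 0.1, 0.175 adjusted). Med13l to Med13 gave 0.453, 0.416 and 0.510 in Nat10 cKO and 0.680, 0.742 and 0.787 in WT libraries, again apart (exact permutation p = 0.1, 0.175 adjusted). In each of these pairs the numerator had fallen in the fit over all genes, so the ratio repeats that change and is not separate evidence of it. Med12 to Med12l, Taf5l to Taf5 and Taf6l to Taf6 had overlapping ratios, with log2 differences of 0.27, -0.11 and -0.48 (exact permutation p = 0.3, 0.7 and 0.2).

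**Figure D5:**
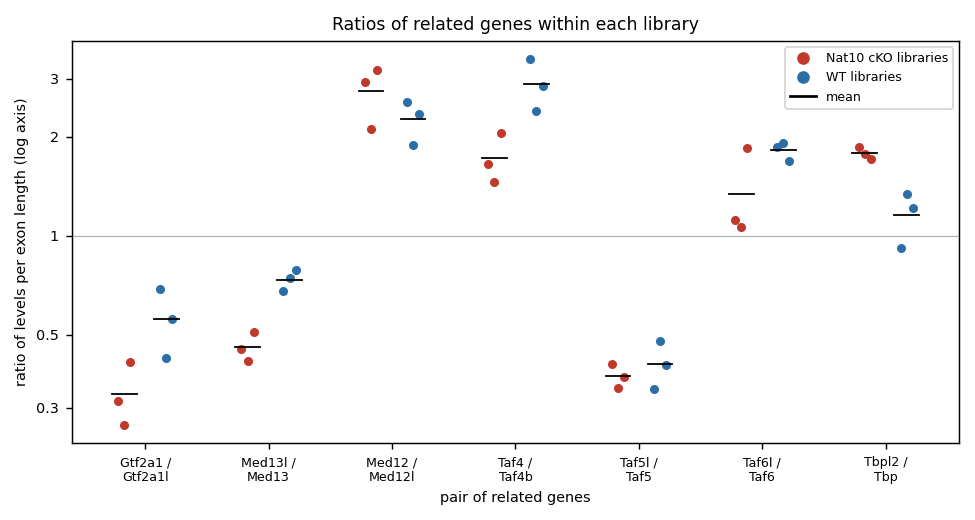
Ratio of the exon-length-scaled levels of 7 pairs of related genes in each library (log axis), Nat10 cKO in red left of WT in blue; lines are means of 3 libraries. Nat10 cKO and WT ratios do not overlap for Gtf2a1 to Gtf2a1l, Med13l to Med13, Taf4 to Taf4b and Tbpl2 to Tbp.

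Of 18 genes that work with these complexes but lie outside the symbol rule, 3 rose and 1 fell. The share that rose is near that of all tested genes (17.4%), and the share that fell is under it (17.6%). Tbpl2, the TBP paralogue of mouse oocytes, had 29.7, 30.1 and 24.1 CPM in Nat10 cKO libraries, against 13.8, 17.6 and 17.5 CPM in WT libraries (log2 change 0.75, SE 0.136, adjusted p = 0.00119). Tbp had 157, 167 and 139 CPM in Nat10 cKO and 148, 129 and 142 CPM in WT libraries, which overlap (0.14, adjusted p = 0.283). Per length Tbpl2 stood to Tbp as 1.86, 1.77 and 1.71 in Nat10 cKO and 0.917, 1.34 and 1.21 in WT libraries (exact permutation p = 0.1, 0.175 adjusted). That length counts all annotated exons, 13576 bases for Tbp and 1379 for Tbpl2. These ratios therefore do not show which transcript was the more numerous. Exons of Pdcd2 on the other strand cover 19% of the Tbp exon bases. Ubtf, which bends ribosomal DNA and acts with SL1, had 24.9, 28.5 and 25.8 CPM in Nat10 cKO libraries, against 5.62, 15.8 and 9.74 CPM in WT libraries (1.37, SE 0.252, adjusted p = 0.00162), and rose on all 3 scales. Rrn3, which brings polymerase I to SL1, went the other way, at 126, 108 and 136 CPM in Nat10 cKO and 147, 174 and 182 CPM in WT libraries (-0.44, SE 0.109, adjusted p = 0.00760). Cdk7, the TFIIH kinase, had 260, 292 and 240 CPM in Nat10 cKO and 229, 193 and 211 CPM in WT libraries (0.32, SE 0.0977, adjusted p = 0.0217). Rrn3 was lost without WT replicate 3 (adjusted p = 0.0548), and Cdk7 without WT replicate 3, Nat10 cKO replicate 1 or Nat10 cKO replicate 2 (adjusted p = 0.0675, 0.0600 and 0.0904). Taf4b had 43.4, 39.2 and 43.4 CPM in Nat10 cKO and 30.1, 42.3 and 34.7 CPM in WT libraries (0.24, adjusted p = 0.154), and passed without WT replicate 2 (adjusted p = 0.0222), its highest WT library. The other genes, among them the kinase-module genes Cdk8, Cdk19 and Ccnc and the TFIIH genes Ercc2, Ercc3, Ccnh and Mnat1, did not pass.

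The sequence before the annotated start, from RefSeq (GRCm38.p6), is given for the 2 largest rises and the 2 largest falls on the log2(CPM + 1) scale. By the ratio of mean CPM, Gtf2i (3.42) rose more than Gtf2h4 (2.29), so the choice of Gtf2h4 depends on that scale. Gtf2a1 and Gtf2a1l are given beside each other as the TFIIA precursors. Each runs 5′ to 3′ on the gene's strand and ends at the last base before both the RefSeq and the GENCODE start (for Taf1c and Gtf2a1, the outer of 2 RefSeq starts). Capitals mark a match, on either strand, to the TATA box (TATAAA), the CCAAT box (CCAAT) or the GC box (GGGCGG), and no matches overlap in the stretches shown.
Taf1c, chr8:119605223-119605306, minus strand: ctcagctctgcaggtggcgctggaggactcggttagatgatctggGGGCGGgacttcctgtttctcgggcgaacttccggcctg
Gtf2h4, chr17:35673744-35673843, minus strand: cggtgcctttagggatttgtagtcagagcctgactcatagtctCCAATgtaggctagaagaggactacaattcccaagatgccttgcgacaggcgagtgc
Taf10, chr7:105744362-105744438, minus strand: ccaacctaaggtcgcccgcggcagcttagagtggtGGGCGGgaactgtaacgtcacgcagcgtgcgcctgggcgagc
Med13l, chr5:118560619-118560678, plus strand: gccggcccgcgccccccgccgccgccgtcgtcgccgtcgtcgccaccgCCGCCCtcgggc
Gtf2a1, chr12:91590488-91590587, minus strand: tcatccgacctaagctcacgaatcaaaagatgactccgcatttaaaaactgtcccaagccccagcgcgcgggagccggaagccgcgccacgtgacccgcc
Gtf2a1l, chr17:88668560-88668659, plus strand: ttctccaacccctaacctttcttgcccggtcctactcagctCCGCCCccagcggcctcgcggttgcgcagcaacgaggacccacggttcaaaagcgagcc

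None of these stretches holds TATAAA, Gtf2h4 holds CCAAT, and Taf1c and Taf10, which moved in opposite directions, both hold GGGCGG, as do Med13l and Gtf2a1l on the other strand. GC content ran from 51% in the Gtf2h4 stretch to 90% in that of Med13l. Over the 250 bases before each start, 69 of the 76 genes matched the RefSeq table, with 83 windows. TATAAA lay in 13.3% of these windows, against 12.4% of all 32851 windows and 7.92% of those of tested genes. CCAAT lay in 32.5%, against 33.8% and 35.2%. GGGCGG lay in 55.4%, against 32.7% and 50.4%. The members' share of GGGCGG is thus near that of the tested genes. These are matches of letters, with no measurement of binding.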

How the data were processed

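Polyadenylated RNA of 10 fully grown oocytes per library was sequenced by Smart-seq2, with 3 Nat10 cKO and 3 WT libraries. The submitters' processing notes name STAR 2.7.10a, Trim Galore 0.6.7, featureCounts and the mm10 build, without settings, strand use or annotation. WT replicate 1 was deposited as raw counts of reads for each gene. The authors deposited the other 5 libraries as a signal, namely whole reads multiplied by 1 factor per library (0.92, 0.908 and 0.932 for Nat10 cKO replicates 1 to 3, 1.38 and 0.945 for WT replicates 2 and 3). Dividing by the factor gave whole reads, within 0.001, for 100% of values. These factors move all genes of a library together.

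The comparison used limma 3.58.1 (trended, robust empirical Bayes) on TMM-scaled log2(CPM + 1) of the recovered reads, with filterByExpr at a minimum count of 10. All tests were two-sided, adjusted by Benjamini-Hochberg over 18353 genes. A pseudocount of 1 understates changes of low genes. Alternatives used edgeR 4.0.16, DESeq2 1.42.0, other scalings, pseudocounts, no filter, a replicate block and each library left out. Scripts ran in R 4.3.3 and in Python 3.11.15 with matplotlib 3.10.9, pandas 2.3.3 and numpy 2.4.6. The script was tested on simulated data for this comparison (17984 genes) and recovered 22.4% of genes changed 1.5-fold, 77.6% changed 2-fold and 89.4% changed 4-fold, with 0.0506% of unchanged genes called. Only 67, 67 and 66 genes were changed by these folds, a far smaller share than passed in the data. The adjustment depends on that share, so these rates need not be those of the real comparison.

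Exon lengths and positions came from GENCODE M21 on GRCm38, the assembly of mm10, where all 76 genes matched. The length of a gene is that of all its annotated exons merged, which can exceed that of the transcript present. Orders between genes per length are therefore approximate. Exons of 25 members overlap another gene on the other strand and those of 7 a gene on the same strand. The overlap exceeds 10% of exon bases in 16, of which 5 passed the threshold. Without strand, the reads of an opposite-strand pair cannot be separated.

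No 2 libraries were duplicates, with a chi-square per degree of freedom of 11.5 to 43.5 between replicates. The members and gene lists were chosen with earlier results of these data known. Values per library are printed for the largest changes past the threshold without overlap, up to 12 each way (12 of 13 rises and all 9 falls), the most abundant member per length of each role group, and the paralogue pairs. Med22, Gtf3c5 and Med16 and the 4 called genes outside the symbol rule were added after their values were seen.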

Additional observations from a re-analysis of the deposited data

How the results depend on the processing

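The counts of 14 rises and 9 falls among the tested genes were the same with median-of-ratios factors, edgeR, a pseudocount of 4 and a replicate block. They were 16 and 9 with library sizes alone, 17 and 9 with DESeq2, 13 and 9 with a pseudocount of 0.25, and 11 and 7 with no filter. Gtf3c5 was lost at the pseudocount of 0.25, and Med22, Gtf3c5, Taf6, Taf5l and Med31 with no filter. They were 3 and 0 on the deposited values, and 3 and 8 on CPM times the deposited factor, scales on which the median of all genes lies at 0.24 and -0.15. Leaving out 1 library gave 9 to 20 rises and 6 to 9 falls. Among the 18 partner genes, 3 rises and 1 fall became 1 and 0 on the deposited values and 1 and 1 on CPM times the factor, and 2 to 4 and 0 to 1 when a library was left out. The cause was not tested.

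The labels do not say whether the replicate numbers pair the libraries. Deviations of same-numbered libraries correlated at 0.08, 0.07 and -0.12, and those of the other pairs at -0.23 to 0.24. These values show no sign of pairing but cannot exclude it. With the replicate block 23 genes passed, all 23 shared with the fit without it.

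No estimate past the threshold changed sign under any of these alternatives. Estimates near 0 that had not passed did. On the deposited values the log2 changes were 0.25 for Gtf2b, 0.34 for Gtf2f2, 0.30 for Gtf2h5, 0.35 for Gtf3c2, 0.22 for Med28, 0.27 for Taf1a, 0.29 for Taf6l and 0.36 for Taf7. On CPM times the factor they were 0.00 for Gtf2a1l, -0.06 for Gtf2e2, -0.11 for Med12l, -0.15 for Med13, -0.15 for Med14, -0.20 for Med6, -0.06 for Med7 and -0.08 for Tbp. With library sizes alone they were 0.01 for Gtf2f2, 0.02 for Gtf3c2 and 0.03 for Taf7, and with no filter 0.00, 0.01 and 0.02. Taf7 was at 0.00 with median-of-ratios factors and with DESeq2, and Gtf3c2 at 0.00 with edgeR and 0.01 with DESeq2. With 1 library left out, the log2 change ran from -0.09 to 0.02 for Gtf2f2, -0.10 to 0.08 for Gtf3c2, -0.02 to 0.14 for Med13, -0.08 to 0.08 for Med6, -0.17 to 0.03 for Med9os, -0.17 to 0.01 for Taf6l and -0.02 to 0.02 for Taf7.

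With 3 libraries per group, a gene that did not pass is not shown to be equal. In the simulation 22.4% of 1.5-fold changes were recovered. Far fewer genes changed there than passed in the data, so that rate need not hold for this comparison. Genes under about 1 CPM, such as Gtf2ird2, rest on few reads, and intervals on reads would cover counting error only.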

Other observations

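The 6 factors in the deposited table are, to the precision of the file, 69 divided by a whole number. The divisors are 75, 76 and 74 for Nat10 cKO replicates 1, 2 and 3 and 69, 50 and 73 for WT replicates 1, 2 and 3. Deposited totals came to 68.2, 43.0 and 66.2 M reads in the Nat10 cKO libraries and 33.5, 47.1 and 61.9 M in the WT libraries.

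Of the 76 genes, 5 lie on the X chromosome, namely Med14, Med12, Taf1, Taf7l and Taf9b. Taf9b passed the test as higher, as did 17.4% of all tested genes. Med12 and Taf1 had every Nat10 cKO library above every WT library without passing it. Of all tested genes, passing or not, 24.1% stood apart in that direction.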
